A study of Rattus norvegicus with 6 samples.

Results

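A panel of 5 genes that mark microglia and other myeloid cells was measured in spinal cord tissue from 6 rats: Csf1r, Cx3cr1, Itgam, Tyrobp and Aif1. They were taken from a fixed list of Ensembl gene IDs, and all 5 of 5 listed IDs were found among the 22526 genes of the deposited table and passed the filter on low values, which left 19515 genes for testing. The table holds IDs and no gene symbols, so the names follow the list and were not checked against an annotation. All animals were adult female Sprague-Dawley rats with a spinal cord injury, sampled 2 weeks later, with 3 rats in each group. The A-DON rats carried an implanted decellularized optic nerve scaffold, that is, donor nerve stripped of its cells, bearing Apt19S, an aptamer (a short folded single-stranded nucleic acid that binds a target). The DON rats carried the decellularized scaffold without the aptamer. Uninjured cord and injured cord without a scaffold were not analysed here, so every value in A-DON is set against an injured, implanted cord.

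Microglia are the resident macrophages of the central nervous system. After a spinal injury they are joined at the lesion by monocyte-derived macrophages from the blood, and the same surface and signalling genes are active in both. Csf1r encodes the receptor through which colony stimulating factor 1 keeps microglia and macrophages alive. Cx3cr1 encodes the receptor of fractalkine, a chemokine displayed by neurons, and is known as a gene of resting microglia. Itgam encodes the alpha chain of the integrin called Cd11b, used in adhesion and in uptake of complement-coated material. Tyrobp encodes Dap12, the adaptor that relays signals from Trem2 and related receptors to the kinase Syk. Aif1 encodes Iba1, a calcium-binding protein of the cytoplasm whose antibody is the usual stain for microglia. None of the 5 separates microglia from infiltrating macrophages on its own.

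Promoters of the 5 genes are shown where a sequence was at hand, which was the case for 3 of them. Whether promoter sequence has a part in the change between the groups was not tested. PU.1, the lineage factor of macrophages and microglia, binds sites with the core GAGGAA, which reads TTCCTC on the other strand, and matches to either are in capitals. Each line gives the 250 bases before the start that RefSeq (build GRCr8) lists for the gene, on the gene's own strand, 5′ to 3′. The windows are chr1:192089342-192089591 (plus strand) for Itgam, chr18:56834129-56834378 (plus strand) for Csf1r and chr8:128677067-128677316 (minus strand) for Cx3cr1. In all 3 genes RefSeq also annotates the gene from further upstream, so these are not the only possible starts.
Itgam: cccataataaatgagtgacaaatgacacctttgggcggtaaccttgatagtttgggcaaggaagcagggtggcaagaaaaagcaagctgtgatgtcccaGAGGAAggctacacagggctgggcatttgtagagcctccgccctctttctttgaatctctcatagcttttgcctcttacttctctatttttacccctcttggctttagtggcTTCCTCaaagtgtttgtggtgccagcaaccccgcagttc
Csf1r: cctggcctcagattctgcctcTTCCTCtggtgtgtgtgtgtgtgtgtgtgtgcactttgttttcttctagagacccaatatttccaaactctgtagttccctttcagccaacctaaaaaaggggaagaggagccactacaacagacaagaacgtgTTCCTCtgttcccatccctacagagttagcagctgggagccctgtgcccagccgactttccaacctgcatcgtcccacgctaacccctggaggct
Cx3cr1: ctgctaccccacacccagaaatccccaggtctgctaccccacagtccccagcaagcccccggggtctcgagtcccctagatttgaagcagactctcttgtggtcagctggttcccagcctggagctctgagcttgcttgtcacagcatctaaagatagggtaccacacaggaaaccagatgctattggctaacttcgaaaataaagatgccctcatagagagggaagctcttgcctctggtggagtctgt

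The Itgam window held 2 matches, beginning 151 and 39 bases before the start, and the Csf1r window held 2, beginning 229 and 95 bases before it. The Cx3cr1 window held 0. Of 33469 rat promoter windows of the same length, 23.3% held at least 1 match and 3.39% held 2 or more. The motif was chosen after the 3 windows had been read, so these shares are no test of the members' windows. A match is a description of letters and not a measured binding site, and its absence from this window says nothing about the factor.

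Recovered totals were lower in A-DON (24961512 to 28911941 reads) than in DON (29143139 to 31189687 reads). The members had 279 to 20919 reads in a library, so none was near a count of 0. Values are given as normalized counts, that is, reads divided by the library's size factor. A-DON replicate 2 stood between the other A-DON libraries and the DON libraries for each of the 5 genes, and its values are given apart where they matter. Markers of neurons, other glia, lymphocytes, neutrophils and scar cells were not analysed here, because no ID outside the list could be named, so the labelled tissue was not checked against them.

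All 5 genes fell in A-DON relative to DON, by 3.46-fold to 8.29-fold as ratios taken from the means of the log2 values. In each gene the highest A-DON library was lower than the lowest DON library in normalized counts. For Itgam this did not hold when libraries were scaled by their total reads. The count of 5 of 5 past the threshold and lower stands beside 16.6% of the 19515 genes tested (adjusted p under 0.05 in limma, by Benjamini-Hochberg). Counting either direction, 35.5% of tested genes passed. Among the 4446 tested genes at least as abundant as the lowest of the members, 23.3% passed and were lower. Full separation in normalized counts, with A-DON below, was seen in 27.9% of tested genes (5437 of 19515). It was seen in 1461 of the 4446 genes at least as abundant as the lowest member. The median log2 fold change was -2.09 over the members and -0.02 over all tested genes. In such bulk tissue, fewer cells of a type and less RNA per cell cannot be told apart.

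**Figure D1:**
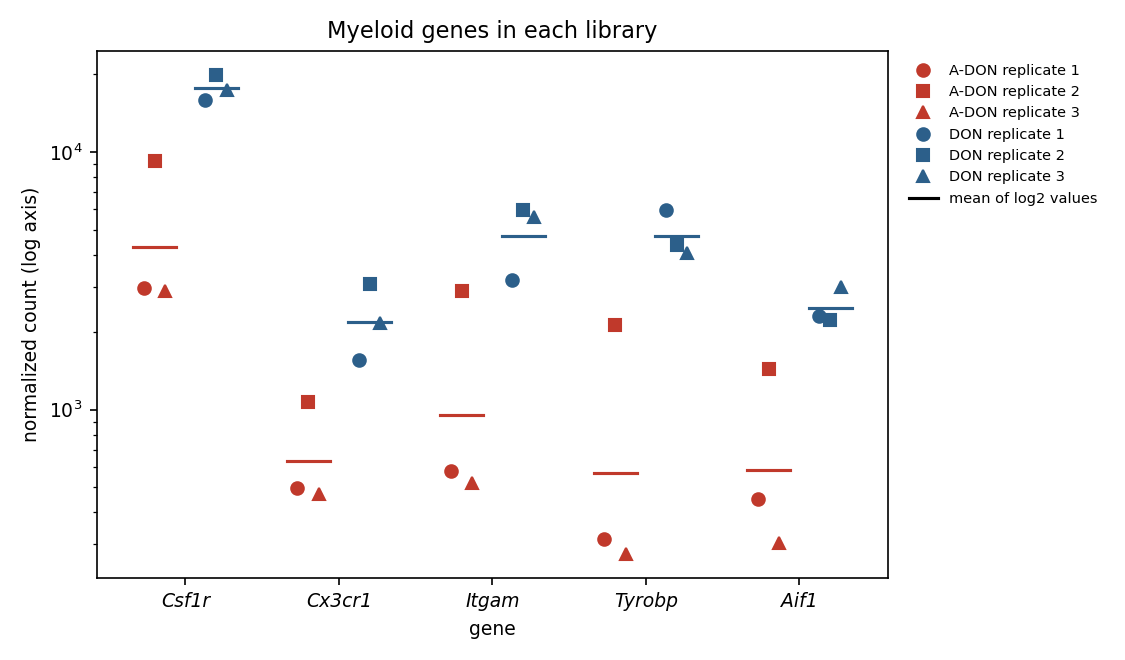
Normalized counts (log axis) of the 5 genes in each library, A-DON in red on the left of each pair and DON in blue, with a marker shape per replicate and a line at the mean of the log2 values. In every gene A-DON replicates 1 and 3 are the lowest libraries, and A-DON replicate 2 lies between them and the DON libraries.

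Of the receptors, Csf1r had 2978, 9233 and 2877 normalized counts in A-DON replicates 1 to 3, against 15943, 19945 and 17439 in DON replicates 1 to 3. The groups did not overlap, and the highest A-DON library reached 57.9% of the lowest DON library. The means were 5029 ± 3641 normalized counts in A-DON and 17775 ± 2022 in DON (SD, n = 3 each). The fitted log2 fold change was -2.04 ± 0.47 (standard error, here and below), at an adjusted p of 0.024 in limma. Csf1r lay at percentile 98.8 of the tested genes by mean normalized count, which is not corrected for gene length.

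Cx3cr1, the fractalkine receptor, had 497, 1071 and 473 normalized counts in A-DON replicates 1 to 3, against 1559, 3086 and 2169 in DON replicates 1 to 3. The groups did not overlap, but DON replicate 1 stood well below DON replicate 2. The means were 680 ± 339 in A-DON and 2272 ± 769 in DON (SD, n = 3 each). This was the smallest change of the 5, at -1.79 ± 0.40 on the log2 scale (limma, adjusted p = 0.023).

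Itgam, the Cd11b integrin chain, had 580, 2888 and 520 normalized counts in A-DON replicates 1 to 3, against 3175, 5952 and 5618 in DON replicates 1 to 3. The gap between the groups was narrow here, since A-DON replicate 2 reached 91.0% of DON replicate 1. Scaled by total reads instead, these libraries changed order and the groups overlapped. Itgam then held 2677 of 24961512 reads in A-DON replicate 2, a slightly larger share than 3331 of 31189687 reads in DON replicate 1. The means were 1329 ± 1350 in A-DON and 4915 ± 1516 in DON (SD, n = 3 each). On the log2 scale Itgam changed by -2.31 ± 0.70, and its adjusted p of 0.047 in limma was the closest of the 5 to the threshold. It was past the threshold in 4 of 9 alternative settings that kept all libraries, while each of the other 4 genes was past it in 8 of 9.

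Tyrobp, the Dap12 adaptor, had 314, 2127 and 276 normalized counts in A-DON replicates 1 to 3, against 5970, 4346 and 4074 in DON replicates 1 to 3. A-DON replicates 1 and 3 were at 6.54% and 5.75% of the DON mean, and A-DON replicate 2 at 44.4%. The means were 906 ± 1058 in A-DON and 4796 ± 1025 in DON (SD, n = 3 each). The change of -3.05 ± 0.79 on the log2 scale was the largest in size among the 5 genes (limma, adjusted p = 0.032). Only 1.88% of the tested genes had a log2 fold change as low or lower, against 10.1% for Cx3cr1.

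Aif1, the Iba1 gene, had 451, 1441 and 305 normalized counts in A-DON replicates 1 to 3, against 2317, 2230 and 2985 in DON replicates 1 to 3. The groups did not overlap, with the highest A-DON library at 64.6% of the lowest DON library. The means were 732 ± 619 in A-DON and 2511 ± 413 in DON (SD, n = 3 each). Its log2 fold change in limma was -2.09 ± 0.56, at an adjusted p of 0.035. Aif1 was also the gene in which A-DON replicates 1 and 3 differed most, by a ratio of 1.48, against 1.03 to 1.14 in the other 4.

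**Figure D2:**
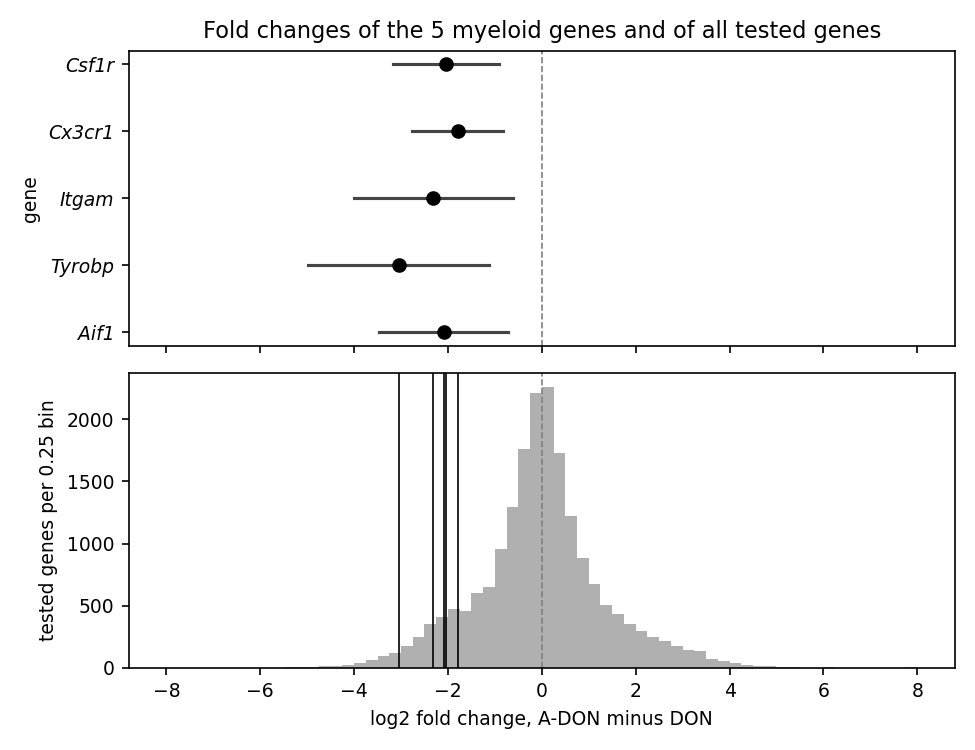
Above, the log2 fold change (A-DON minus DON) of each gene with its 95% confidence interval from limma, and below, the number of tested genes in each bin of log2 fold change with the members as black lines. All 5 intervals lie below 0, from -4.98 at the lowest (Tyrobp) to -0.61 at the highest (Itgam), and their estimates lie in the lower tail of the 19515 tested genes.

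The spread within A-DON was wide for these genes. Their median SD on the log2 scale was 1.16 within A-DON and 0.30 within DON, where over all tested genes the medians were 0.29 and 0.28. A-DON replicate 2 stood apart from the other A-DON libraries in each gene. It was at 44.4% to 58.8% of the DON mean, while A-DON replicates 1 and 3 stood at 5.75% to 21.9%. Relative to the mean of those 2 libraries, A-DON replicate 2 was 2.21-fold higher in Cx3cr1 and 7.22-fold higher in Tyrobp. On the linear scale from the DON mean (0) to the mean of A-DON replicates 1 and 3 (1), it was placed at 0.46 for Itgam, 0.50 for Aif1, 0.58 for Csf1r, 0.59 for Tyrobp and 0.67 for Cx3cr1. On the log2 scale, which the tests used, these places were 0.23, 0.29, 0.36, 0.29 and 0.47 in the same order. There A-DON replicate 2 was nearer to the DON mean in each gene. A-DON replicate 2 also stood apart over genes beyond the members, by chi-square per degree of freedom, which grows as the reads of 2 libraries differ. It was 182 and 156 against A-DON replicates 1 and 3, which were at 23.1 from each other. Against DON replicates 1 to 3 it was 285, 166 and 201, so A-DON replicate 2 was nearer to DON replicate 2 than to A-DON replicate 1. DON replicate 1 also stood apart from its group by this measure. It was at 177 and 181 from DON replicates 2 and 3, which were at 56.5 from each other. The part of the tissue content or depth of A-DON replicate 2 in these values was not tested.

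The DON libraries did not share 1 order over the genes. DON replicate 1 was the lowest DON library for Csf1r, Cx3cr1 and Itgam, and the highest for Tyrobp. DON replicate 3 was the highest for Aif1 and the lowest for Tyrobp. The highest DON library exceeded the lowest by 1.25-fold in Csf1r and by 1.98-fold in Cx3cr1.

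The number of calls changed with the library left out, for the members and for all genes. Without A-DON replicate 2 all 5 genes were past the threshold, beside 24.9% of tested genes called lower in that fit, with log2 fold changes of -4.00 for Tyrobp, -3.11 for Itgam, -2.75 for Aif1, -2.60 for Csf1r and -2.17 for Cx3cr1. Without A-DON replicate 1, A-DON replicate 3, DON replicate 2 or DON replicate 3, 0 of the 5 passed limma's adjusted threshold, while 4, 4, 5 and 4 had an unadjusted p under 0.05. In these 4 fits 0.0154%, 0.00512%, 5.66% and 1.13% of tested genes were called lower. The genes called higher numbered 32, 11, 2825 and 1332. With all libraries, 3232 genes were called lower and 3698 higher. Without DON replicate 1 only Cx3cr1 of the 5 passed, beside 6.65% of tested genes called lower. Every log2 fold change in these fits stayed below 0, between -4.00 and -1.54, and the limma adjusted p of the calls that were lost lay between 0.056 and 0.15. Each of these fits had 1 rat fewer.

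**Figure D3:**
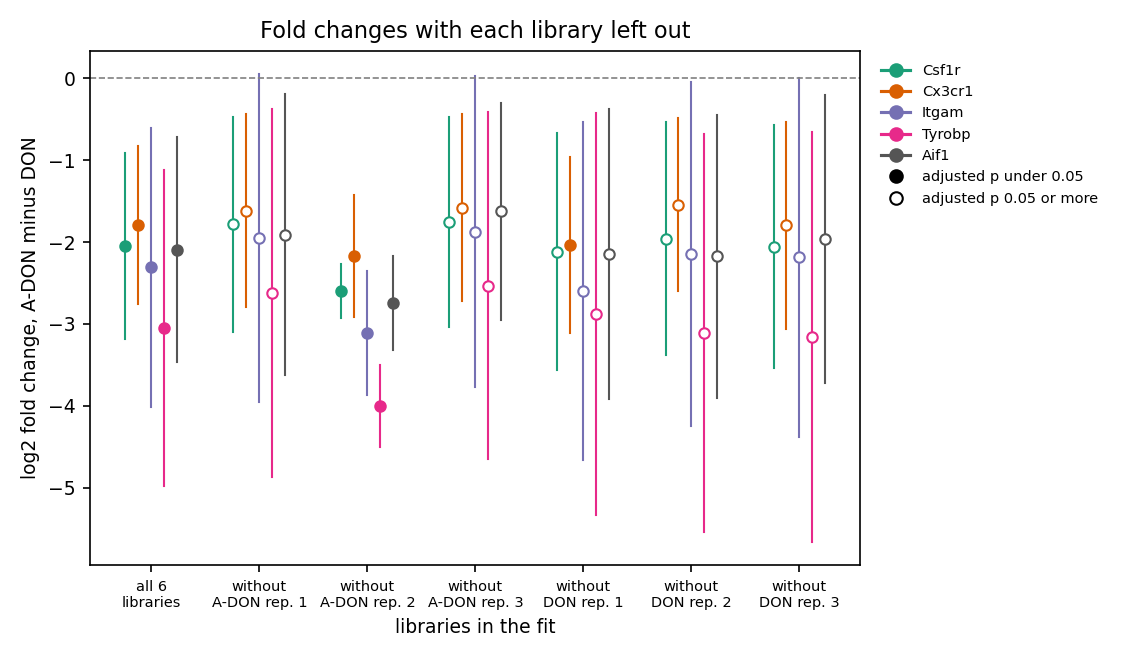
Log2 fold changes (A-DON minus DON) of the 5 genes with 95% confidence intervals, with all 6 libraries and with each library left out; filled points have a limma adjusted p under 0.05. All estimates are below 0, and the intervals are narrowest without A-DON replicate 2. The Itgam interval crosses 0 without A-DON replicate 1 (upper limit 0.053), A-DON replicate 3 (0.027) or DON replicate 3 (0.006).

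Whether the genes fell by unequal amounts was examined through their ratios within each library, which do not depend on how that library was scaled apart from the 1 added before the log. Tyrobp relative to Csf1r, as a difference of log2 values, was -3.24, -2.12 and -3.38 in A-DON replicates 1 to 3, against -1.42, -2.20 and -2.10 in DON replicates 1 to 3. The group means differed by -1.01 with a standard error of 0.47, and A-DON replicate 2 lay within the DON range. Tyrobp relative to Cx3cr1 was -0.66, 0.99 and -0.77 in A-DON replicates 1 to 3, against 1.94, 0.49 and 0.91 in DON replicates 1 to 3. Here the means differed by -1.26 with a standard error of 0.71.

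Of the 10 pairs of genes, 0 had groups that did not overlap. The smallest exact two-sided permutation p over the 10 pairs was 0.2, and 0.56 after Benjamini-Hochberg adjustment. Rats in groups of 3 against 3 cannot give a p below 0.1. The difference nearest to 0 was that of Aif1 relative to Csf1r, at -0.05 with a standard error of 0.25. Without A-DON replicate 2, 7 of the 10 pairs did not overlap, among them all 4 pairs with Tyrobp, whose differences then ran from -1.83 (relative to Cx3cr1) to -0.90 (relative to Itgam). The exact two-sided permutation p of these 7 pairs was 0.2, the smallest that 2 rats against 3 allow in this test, and 0.29 after adjustment over the 10 pairs. The pairs share genes and are not independent, and the library left out was the one that stood apart within A-DON. No such count was made for pairs of other genes, so 7 of 10 cannot be read as particular to the members. Unequal falls were therefore not shown by these tests, and equal falls were not shown either.

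**Figure D4:**
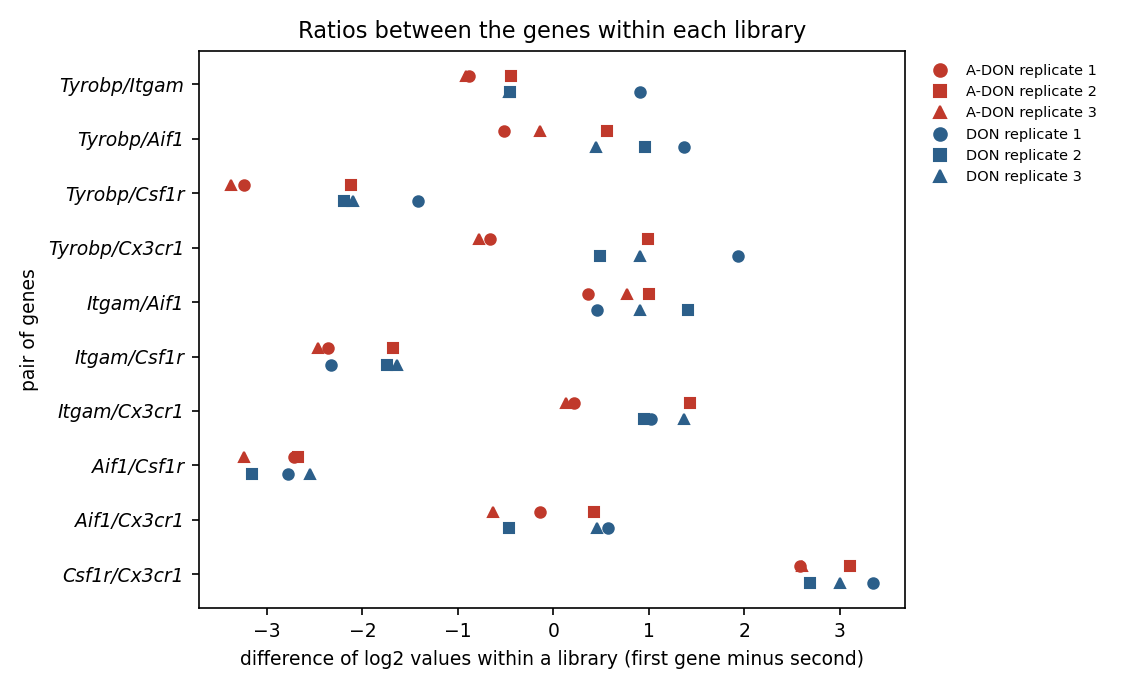
Difference of log2 values between the 2 genes of each pair within each library, A-DON in red above and DON in blue below, with a marker shape per replicate. In the 4 pairs with Tyrobp, A-DON replicates 1 and 3 lie to the left of the DON libraries and A-DON replicate 2 lies apart from them to the right.

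Together the 5 genes held 0.0173%, 0.0622% and 0.0159% of the reads in A-DON replicates 1 to 3, against 0.0974%, 0.123% and 0.1096% in DON replicates 1 to 3. Csf1r gave most of these reads in every library, as a read count not corrected for gene length.

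The profile over the 6 libraries was shared with many other genes. Likeness was measured as the root mean square distance, on the log2 scale, between the mean-centred values of a gene and the mean of the members' mean-centred values, over 6 libraries and the 13607 genes that averaged 100 normalized counts or more. By this measure Csf1r ranked 29, Aif1 73, Itgam 109, Cx3cr1 543 and Tyrobp 977. The mean includes each member's own values, which brings the members nearer to it. The 2 genes outside the list with the smallest distance were ENSRNOG00000007993 (0.058) and ENSRNOG00000036829 (0.063), which the sources used here do not name. ENSRNOG00000007993 had 124, 455 and 117 normalized counts in A-DON replicates 1 to 3, against 793, 1043 and 896 in DON replicates 1 to 3. ENSRNOG00000036829 had 710, 2902 and 599 in A-DON replicates 1 to 3, against 4525, 5687 and 4997 in DON replicates 1 to 3. Both were picked for a profile like that of the members, so the place of A-DON replicate 2 in them is no separate observation. It lay between the other A-DON libraries and the DON libraries. Among the members, Aif1 and Csf1r were nearest to each other, at a distance of 0.25.

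The Ensembl IDs of the genes were ENSRNOG00000018414 (Csf1r), ENSRNOG00000018509 (Cx3cr1), ENSRNOG00000019728 (Itgam), ENSRNOG00000020845 (Tyrobp) and ENSRNOG00000000853 (Aif1). Their positions in the build used by the submitters were not used here.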

How the data were processed

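Stranded mRNA-seq libraries were made from the spinal cord of 6 rats and read on an Illumina instrument; both steps are per the labels' protocols. Tools listed in the submitters' processing notes, with no role for each, are StringTie 1.3.1c, STAR 2.5.3a and FastQC 0.11.2, and the listed build is rn6. How reads were counted, with which strand setting and annotation, is not stated there, so reads of a gene and of an antisense partner may not be told apart.

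The authors deposited values on a log2 scale. Converted back to the linear scale, less the 1 added, 100% of a library's values were whole multiples of 1 step within 0.05 reads, and the inverse steps (0.927 to 1.05) equalled median-of-ratios size factors. The deposited log2 values are thus log2(reads / size factor + 1), and fold changes on this scale understate those of low genes.

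The main test of A-DON against DON used limma 3.58.1 in R 4.3.3, with statmod 1.5.0, group as the only term, an intensity trend and robust moderation. It ran over genes that reached a normalized count of 1 in 3 or more libraries. P-values were adjusted by Benjamini-Hochberg over all 19515 genes, with a threshold of 0.05. The fit was tested on simulated counts of equal spread in every library, which does not cover a library that stands apart. Ratios between members were tested by exact permutation (Python 3.11.15, scipy 1.17.1). No pair of libraries agreed within sampling noise (chi-square per degree of freedom of 23.1 or more).

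The members and lists were chosen with earlier results of these data known, and the promoter motif after the windows had been read. All 5 members are named. The genes most alike were named by a distance rule, limited to 2. The reference gene table lists 0 of the 22526 IDs, so the 12 lists of markers and partners (64 symbols) gave no value. Alternatives were other scalings, filters and pseudocounts, limma without trend and robust moderation, voom on the recovered reads, library weights, a block for the replicate number, and fits without each library. The background limited to abundant genes was added after seeing the data.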

Additional observations from a re-analysis of the deposited data

How the results depend on the processing

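The members stayed lower in A-DON in all 15 alternatives, with log2 fold changes of -4.00 to -2.53 for Tyrobp, -3.25 to -1.87 for Itgam, -2.97 to -1.63 for Aif1, -2.60 to -1.75 for Csf1r and -2.24 to -1.54 for Cx3cr1. Itgam lost its call under total-count scaling, without the filter, with a pseudocount of 0.1 and without trend and robust moderation (limma adjusted p of 0.056, 0.052, 0.050 and 0.062), so 4 of 5 members passed there, beside 12.4%, 13.2%, 15.7% and 13.1% of tested genes called lower; over all 15 its adjusted p ran from 0.00063 to 0.15. With the replicate number as a block, 0 members and 0 of all genes passed (limma), of which 0 were lower, with adjusted p of 0.066 to 0.084 for the members, while 5 members and 7601 genes had an unadjusted p under 0.05; voom called 5 members, beside 18.5% of tested genes called lower. Over all tested genes, rats of equal number in the 2 groups showed no shared deviation (r of -0.17, -0.24 and -0.08), so the numbers were not used as pairs. For the members, the block changed the standard error from 0.40 to 0.20 in Cx3cr1, 0.70 to 0.50 in Itgam and 0.47 to 0.36 in Csf1r. In Tyrobp it went from 0.79 to 0.72, and in Aif1 it was 0.56 in both fits. Leaving out 1 library gave 0 to 5 members, 12 to 9286 genes in all, 1 to 4855 lower genes, and 0 to 7 pairs of members that do not overlap; the difference in ratio then ran from -0.45 to 0.03 for Itgam relative to Aif1 and from -0.21 to 0.13 for Aif1 relative to Csf1r. Library weights ran from 0.24 for A-DON replicate 2 to 6.99 for A-DON replicate 3. They gave 12414 genes, 6261 of them lower, and the cause was not tested. Of the calls over all genes, 46.6% were lower in A-DON, and 35.6% under total-count scaling (2418 of 6790). The difference in log2 ratio changed sign for Itgam relative to Aif1 without DON replicate 2 (0.028), and for Aif1 relative to Csf1r without A-DON replicate 3 (0.13) or DON replicate 3 (0.09), and the cause was not tested.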
